A study of Mus musculus with 27 samples.

Results

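The levels of 10 genes of the vessel wall and its growth signals were followed across 9 ischemia times of the mouse kidney. Pecam1, Cdh5, Emcn and Plvap mark endothelial cells, Vegfa, Kdr and Flt1 belong to VEGF signalling, and Tek, Angpt1 and Angpt2 belong to angiopoietin signalling. These members were taken by gene symbol, with earlier results of these data known. All 10 were found among the 19392 genes of the deposited table, and all 10 passed the filter on low values (above 0 FPKM in at least 3 kidneys).

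The kidneys came from 27 wild-type C57BL/6 mice, 3 for each duration of clamping of the left renal pedicle, and the study asked how the kidney transcriptome changes as warm ischemia lengthens. The times were 0 min (the Sham group), 16, 18, 20, 22, 24, 26, 28 and 30 min, and each left kidney was taken for RNA sequencing after 24 h of reperfusion. The protocol in the labels gives removal of the right kidney for every group, and by that text alone the 0 min mice also had a single kidney. Their titles say only Sham, so whether they had this removal is not certain. All mice lay on a heated platform during surgery. The labels give neither age nor sex, and whole kidney was sequenced, so that a lower level can mean fewer cells of a type or less RNA per cell, which cannot be told apart.

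Endothelial cells line the arteries, the glomerular capillaries, the peritubular capillaries and the vasa recta of the kidney. VEGF-A is made mainly by epithelial cells, among them podocytes and tubule cells, and signals to the neighbouring endothelium through KDR (VEGFR2), while FLT1 (VEGFR1) binds the same ligand tightly and limits its action. The TIE2 receptor, encoded by Tek, is activated by angiopoietin 1 from perivascular cells, which keeps vessels quiescent, and angiopoietin 2 can oppose this.

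Members with a RefSeq promoter window are shown first, since Kdr, Flt1 and Emcn were highest at 30 min and Vegfa was lowest at 28 and 30 min. RefSeq sequences (GRCm38.p6) gave a window outside exons for 5 of the 10 members, namely Kdr, Flt1, Vegfa, Tek and Emcn. The 250 bases before the start site were kept without annotated exon bases. Capitals mark GGAA, the core of sites for ETS factors such as ERG and FLI1, or its reverse complement TTCC. The windows are Kdr at chr5:75978459-75978705 (minus strand), Flt1 at chr5:147726012-147726261 (minus strand), Emcn at chr3:137340828-137341066 (plus strand) and Vegfa at chr17:46032378-46032627 (minus strand).
Kdr: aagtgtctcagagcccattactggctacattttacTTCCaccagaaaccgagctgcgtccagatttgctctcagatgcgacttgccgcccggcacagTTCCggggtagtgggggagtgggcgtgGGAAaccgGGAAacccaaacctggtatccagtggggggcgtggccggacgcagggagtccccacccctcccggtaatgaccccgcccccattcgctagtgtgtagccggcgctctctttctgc
Flt1: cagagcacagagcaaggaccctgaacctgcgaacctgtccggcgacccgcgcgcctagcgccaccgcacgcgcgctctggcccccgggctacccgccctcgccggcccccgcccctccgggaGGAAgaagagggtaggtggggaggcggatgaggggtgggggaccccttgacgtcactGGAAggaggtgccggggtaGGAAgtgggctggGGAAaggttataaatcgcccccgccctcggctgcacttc
Emcn: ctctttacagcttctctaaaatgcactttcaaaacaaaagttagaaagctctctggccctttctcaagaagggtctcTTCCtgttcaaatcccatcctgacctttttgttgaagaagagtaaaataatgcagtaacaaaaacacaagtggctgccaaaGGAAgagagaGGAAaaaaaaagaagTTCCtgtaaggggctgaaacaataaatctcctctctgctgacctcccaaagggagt
Vegfa: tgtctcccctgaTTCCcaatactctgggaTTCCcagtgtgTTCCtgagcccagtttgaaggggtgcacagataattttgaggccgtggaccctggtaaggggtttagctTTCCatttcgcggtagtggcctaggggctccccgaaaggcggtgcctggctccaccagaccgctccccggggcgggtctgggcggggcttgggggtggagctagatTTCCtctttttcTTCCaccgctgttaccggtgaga
GGAA on either strand was found 4 times in the window of Kdr, 4 times in Flt1, 4 times in Emcn and 6 times in Vegfa, and 2 times in the 250 bases of Tek. The background was 32851 promoter entries, each taken as the full 250 bases with exon bases left in. Of these windows, 93.4% held at least 1 GGAA, with a median of 3 matches, and 33.4% held 4 or more. ACGTG, the core of the hypoxia response element (reverse complement CACGT), was in none of these 5 windows and in 16.6% of all windows. These matches describe letters only.

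The deposited values are FPKM, a level per length of transcript relative to the fragments mapped in each library, and their sum over all genes ran from 512453 to 554036 among the kidneys. Read counts are not used here, so the depth behind each value is unknown. Folds below are on the log2(FPKM + 1) scale after quantile normalization, with limma's adjusted p over 18188 genes. A gene passed the test at an adjusted p under 0.05, and a DEG also had an absolute log2 fold change above 1. Some kidneys stood apart from others of their group. The summed FPKM of 10 interferon genes was 87.9, 2164 and 1697 in the 3 Sham kidneys and 32.8 to 94.5 in the clamped kidneys. At 18 min and at 26 min, replicate 2 was almost without Slc14a2, a urea transporter of the inner medulla (1.73 and 0.37 FPKM, against 21.6 to 99.1 in the other 25 kidneys). Long transcripts (over 6000 bases) read 0.12 to 0.20 higher against short ones (under 1500 bases) on the log2 scale in the Sham kidneys and 0.23 higher in replicate 3 of 16 min, against -0.16 to 0.13 in the other clamped kidneys.

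Of the 10 members, 7 passed the test at 30 min against 0 min, where 52.3% of all genes tested passed, and 3 passed at 28 min, where 48.2% of all genes did. At 30 min 4 members rose, Pecam1, Cdh5, Emcn and Flt1, beside 26.9% of all genes, and 3 fell, Vegfa, Angpt1 and Angpt2, beside 25.4%. Those 3 at 28 min were Vegfa, Tek and Angpt2, and they fell, beside 23.6% of all genes. Before 28 min few members passed. Angpt1 passed for 16 min (19% of all genes passed) and 24 min (28.3%), Angpt2 for 18 min (27.8%) and 26 min (30.1%), and Kdr and Flt1 for 22 min (28.8%), while 0 members passed for 20 min (22.8%). At 20 min, 4 members had an unadjusted p under 0.05 in limma, as did 6394 of the 18188 genes. Angpt2 was a DEG at 18, 26 and 28 min, where 3.06%, 3.77% and 8.48% of all genes were DEGs. The median log2 fold change of the members was -0.32 at 28 min and 0.16 at 30 min, beside 0 for all genes tested at both times, to 2 decimals. All comparisons with 0 min share the same 3 Sham kidneys.

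**Figure D1:**
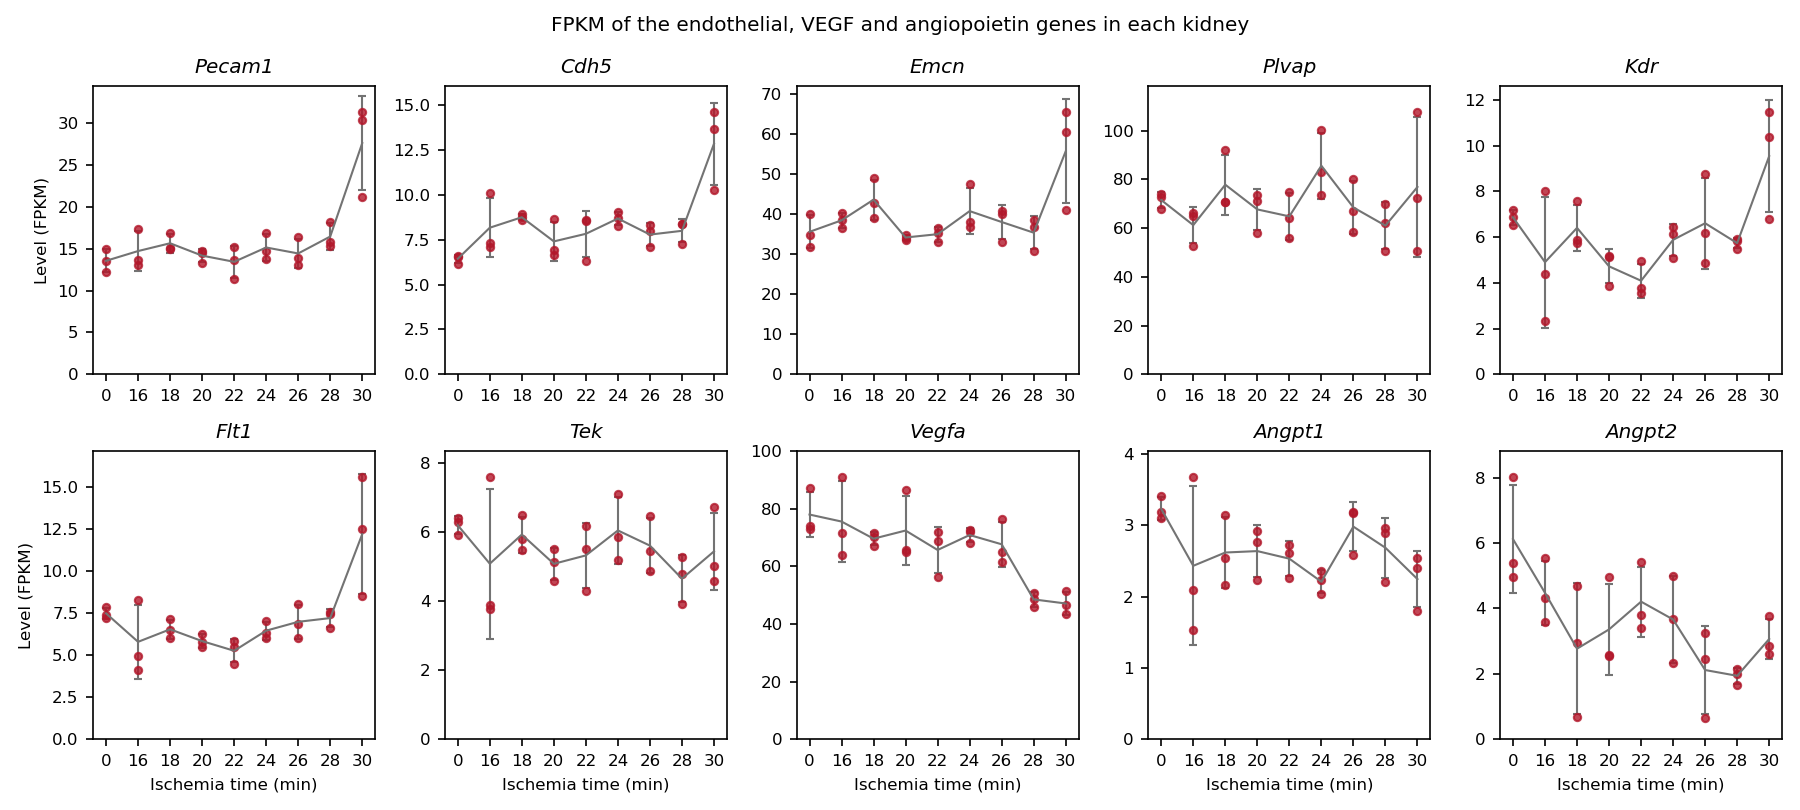
Level in FPKM (linear axes that start at 0) of each of the 10 genes in the 27 kidneys against ischemia time in min, with a point per kidney, a line through the group means and bars of 1 SD (n = 3). Pecam1, Cdh5, Emcn, Kdr and Flt1 have their highest group mean at 30 min, and Vegfa has its lowest means at 28 and 30 min.

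Pecam1, Cdh5 and Emcn did not pass against Sham at any time through 28 min of ischemia in the fit of all groups and rose at 30 min. Pecam1 (chr11:106654217-106750628, minus strand) encodes CD31, an adhesion molecule of endothelial junctions that platelets and leukocytes also carry. Its level was 13.5, 12.2 and 14.97 FPKM in the Sham kidneys, 15.9, 18.3 and 15.3 FPKM after 28 min, and 21.2, 30.4 and 31.3 FPKM after 30 min. In the 18 kidneys from 16 to 26 min it ran from 11.4 to 17.4 FPKM (median 14.6). All 3 kidneys at 30 min lay above all 24 other kidneys. Against 0 min the log2 fold change was 0.87 ± 0.14 (SE, adjusted p = 1.83e-05), and against 28 min it was 0.76 ± 0.14 (adjusted p = 0.0016). Of the 8 pairs of neighbours in the order of its group means, only 30 min and 28 min did not overlap.

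Cdh5 (chr8:104101625-104144511, plus strand) encodes VE-cadherin, the cadherin of endothelial adherens junctions. Its level was 6.54, 6.17 and 6.61 FPKM in Sham, 7.26, 8.36 and 8.37 FPKM at 28 min, and 10.3, 13.7 and 14.6 FPKM at 30 min, with 6.34 to 10.1 FPKM (median 8.43) from 16 to 26 min. Again the 3 kidneys at 30 min were above all others. The Sham group had the lowest mean of the 9 times, and at 18 min all 3 kidneys (8.76, 8.58 and 8.92 FPKM) were above the 3 Sham kidneys. That difference was 0.29 ± 0.12 on the log2 scale and did not pass (adjusted p = 0.083), although it did pass without quantile normalization, at 0.39 (adjusted p = 0.027), and in a fit of the 0 and 18 min groups alone (adjusted p = 0.0069). At 24 min Cdh5 likewise passed without quantile normalization, at 0.38 (adjusted p = 0.030), and in a fit of the 0 and 24 min groups alone, at 0.27 (adjusted p = 0.015). After 30 min Cdh5 was 0.78 ± 0.12 above 0 min (adjusted p = 1.97e-05) and above 28 min by 0.63 ± 0.12 (adjusted p = 0.0027).

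Emcn (chr3:137341067-137432185, plus strand) encodes endomucin, a sialomucin of capillary and venous endothelium. It was at 34.8, 31.8 and 40.0 FPKM in Sham, 30.65, 38.6 and 36.8 FPKM at 28 min, and 41.0, 60.6 and 65.4 FPKM at 30 min. From 16 to 26 min it ran from 33.0 to 48.9 FPKM (median 37.4), so that replicate 1 of 30 min lay inside that range and the other two kidneys above it. Against 0 min the log2 fold change at 30 min was 0.58 ± 0.14 (adjusted p = 0.0019) and against 28 min 0.70 ± 0.14 (adjusted p = 0.0039).

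The calls of Pecam1, Cdh5 and Emcn at 30 min, against 0 min and against 28 min, held when any 1 of the 6 kidneys was left out. Over these fits the log2 fold change against 0 min was 0.76 to 1.06 for Pecam1, 0.69 to 0.92 for Cdh5 and 0.42 to 0.79 for Emcn. In a fit of the 30 and 28 min groups alone, adjusted p was 0.075 for Pecam1, 0.071 for Cdh5 and 0.11 for Emcn, and in a fit of 30 and 0 min alone it was 0.056 for Emcn. Within 30 min, replicate 1 was the lowest of the 3 kidneys for all 3 genes.

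Plvap (chr8:71497765-71511752, minus strand) encodes the protein of the diaphragms of fenestrated capillaries, and it did not pass in any of the 17 comparisons. Its level was 72.85, 67.7 and 73.9 FPKM in Sham, 50.7, 70.0 and 62.25 FPKM at 28 min, and 50.7, 72.3 and 107.5 FPKM at 30 min. The 30 min kidneys thus held the highest Plvap level of all 27 and nearly the lowest, and all 8 pairs of neighbours in the order of its group means overlapped. At 30 min its log2 fold change was 0.04 (95% interval -0.40 to 0.49). Whether Plvap and Pecam1 differed in their response was not tested. Without replicate 1 of 30 min, Plvap was 0.64 above 28 min (adjusted p = 0.030).

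The group means of both VEGF receptors were lowest at 22 min and highest at 30 min. Kdr (chr5:75932827-75978458, minus strand), the main signalling receptor for VEGF-A, was at 6.9, 6.52 and 7.19 FPKM in Sham, 3.54, 4.95 and 3.79 FPKM at 22 min, 5.48, 5.92 and 5.82 FPKM at 28 min, and 6.8, 10.4 and 11.5 FPKM at 30 min. The kidneys at 20, 22, 24 and 28 min were all below Sham, and at 30 min replicate 1 was inside the Sham range. For Kdr the log2 fold change at 22 min was -0.74 ± 0.25 (adjusted p = 0.035). At 30 min it was 0.29 (95% interval -0.25 to 0.82) and did not pass against 0 min, nor did the 0.63 ± 0.25 against 28 min (adjusted p = 0.115). At 28 min it was -0.34 and did not pass in the fit of all groups (adjusted p = 0.30), while a fit of the 0 and 28 min groups alone gave -0.35 (adjusted p = 0.0013). At 20 and 24 min Kdr did not pass in the fit of all groups either (adjusted p = 0.12 and 0.40). Fits of only the groups compared gave -0.57 at 20 min (adjusted p = 0.0125) and -0.32 at 24 min (adjusted p = 0.029). Without replicate 1 of 30 min the difference from 28 min was 0.84 (adjusted p = 0.037).

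Flt1 (chr5:147561604-147726011, minus strand), the second VEGF receptor, was at 7.4, 7.22 and 7.86 FPKM in Sham, 4.5, 5.83 and 5.46 FPKM at 22 min, 6.6, 7.44 and 7.6 FPKM at 28 min, and 8.5, 12.5 and 15.6 FPKM at 30 min. The kidneys at 18, 20, 22 and 24 min were all below Sham, and all 3 at 30 min were above every other kidney. Its log2 fold change was -0.55 ± 0.18 at 22 min (adjusted p = 0.030), 0.50 ± 0.18 at 30 min (adjusted p = 0.027) and 0.67 ± 0.18 from 28 to 30 min (adjusted p = 0.021). In fits of only the groups compared, neither of the calls at 30 min held (adjusted p = 0.091 against 0 min, and 0.12 against 28 min). At 18, 20 and 24 min Flt1 did not pass in the fit of all groups (adjusted p = 0.29, 0.12 and 0.24). Fits of only the groups compared then gave -0.28 (adjusted p = 0.026), -0.41 (adjusted p = 0.0096) and -0.31 (adjusted p = 0.018).

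The calls of both receptors at 22 min were close to the threshold. They were kept in a fit of the 0 and 22 min groups alone. With a kidney left out, the log2 fold change stayed at -0.845 to -0.674 for Kdr and -0.601 to -0.467 for Flt1. Each call held in 1 of 6 such fits, the one without replicate 2 of 22 min. Adjusted p reached 0.10 for Kdr (without replicate 3 of 22 min) and 0.11 for Flt1 (without replicate 1 of 22 min). For both genes the call was lost without any of the 3 Sham kidneys, without replicate 1 and without replicate 3 of 22 min. It was also lost without quantile normalization (adjusted p = 0.064 and 0.070). Kdr and Flt1 have the longest transcripts of the members (5924 and 6895 bases), and with a correction for transcript length, added after seeing the data, the log2 fold changes at 22 min were -0.67 (adjusted p = 0.043) and -0.45 (adjusted p = 0.049). The Flt1 call at 30 min against 0 min held in 2 of 6 such fits and fell to 0.32 (adjusted p = 0.17) without replicate 3 of 30 min. It was also lost without replicate 2 of 30 min and without Sham replicates 1 or 2, and its call against 28 min fell to 0.49 (adjusted p = 0.15) without replicate 3 of 30 min and was lost as well without replicate 2 of 30 min and without replicates 1 or 2 of 28 min.

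At 16 min the receptors differed widely between mice. Kdr was at 2.33, 4.39 and 8.0 FPKM, Flt1 at 4.11, 4.97 and 8.31 FPKM and Tek at 3.76, 3.89 and 7.59 FPKM, so that replicates 1 and 2 were below the Sham kidneys and replicate 3 above them. Without replicate 3, which also stood apart in the length comparison, the log2 fold changes at 16 min were -1.02 for Kdr (adjusted p = 0.0016), -0.75 for Flt1 (adjusted p = 0.0015) and -0.70 for Tek (adjusted p = 0.00098). With all 3 kidneys, none of these genes passed at 16 min (adjusted p = 0.087, 0.074 and 0.13).

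The FPKM ratio of Flt1 to Kdr was 1.07, 1.11 and 1.09 in Sham, 1.2, 1.26 and 1.31 at 28 min and 1.25, 1.21 and 1.36 at 30 min. Neither later group overlapped Sham, with an exact two-sided permutation p of 0.1 each on log2 of the ratio with 1 FPKM added to both genes. With 3 kidneys against 3, 0.1 is the smallest p that such a test can give, and after adjustment over the 20 ratio tests it was 0.286. The 20 and 22 min groups did not overlap Sham on this scale either, with the same p. Over all 24 clamped kidneys against Sham the ratio differed by 0.10 on the log2 scale (exact permutation p = 0.34, adjusted 0.56).

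Vegfa (chr17:46016993-46032369, minus strand), the ligand of both receptors, fell between 26 and 28 min. Its level was 87.05, 74.0 and 73.0 FPKM in Sham, 65.15, 76.4 and 61.5 FPKM after 26 min, 45.9, 50.9 and 48.8 FPKM after 28 min, and 43.35, 51.5 and 46.45 FPKM after 30 min. From 16 to 26 min it ran from 56.45 to 91.0 FPKM (median 69.55), so that all 6 kidneys at 28 and 30 min lay below all 21 kidneys at the shorter times. The group means at 28 and 30 min were 62.2% and 60.4% of the Sham mean. Against 0 min the fall of Vegfa was -0.74 ± 0.13 on the log2 scale at 28 min (adjusted p = 7.30e-05) and -0.73 ± 0.13 at 30 min (adjusted p = 6.12e-05), and both calls held when any 1 kidney was left out.

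Of the 10 members, Vegfa alone passed from 26 to 28 min, where 19.3% of all genes passed, at -0.48 ± 0.13 (adjusted p = 0.012). That call was lost without replicate 2 of 26 min, a kidney nearly without Slc14a2, at -0.38 (adjusted p = 0.081). From 28 to 30 min Vegfa differed by 0.01 (95% interval -0.26 to 0.27).

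Vegfa is also made by podocytes and tubule cells, whose markers moved over the same times. Of 9 proximal tubule genes, 6 fell and 0 rose at 28 min against 0 min, and 8 fell at 30 min, with a median log2 fold change of -1.24 and -1.75. Their summed FPKM was 5466 to 6288 in Sham, 3672 to 6571 from 16 to 26 min, 2527 to 2628 at 28 min and 1619 to 1980 at 30 min, with no marker at 0 in any of these groups. Of 7 genes of the thick ascending limb and distal tubule, 6 fell at 28 min and 5 at 30 min (medians -1.43 and -1.05). Of 8 podocyte genes, 3 rose at 28 min and 4 at 30 min, with 0 lower, and their summed FPKM was 36.4 to 55.6 in Sham, 39.0 to 85.3 from 16 to 26 min, 71.4 to 85.3 at 28 min and 75.7 to 124.0 at 30 min. Among all genes tested, 48.2% passed at 28 min and 52.3% at 30 min, and 23.6% and 25.4% fell. The part of these marker shifts in the Vegfa level was not tested.

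**Figure D2:**
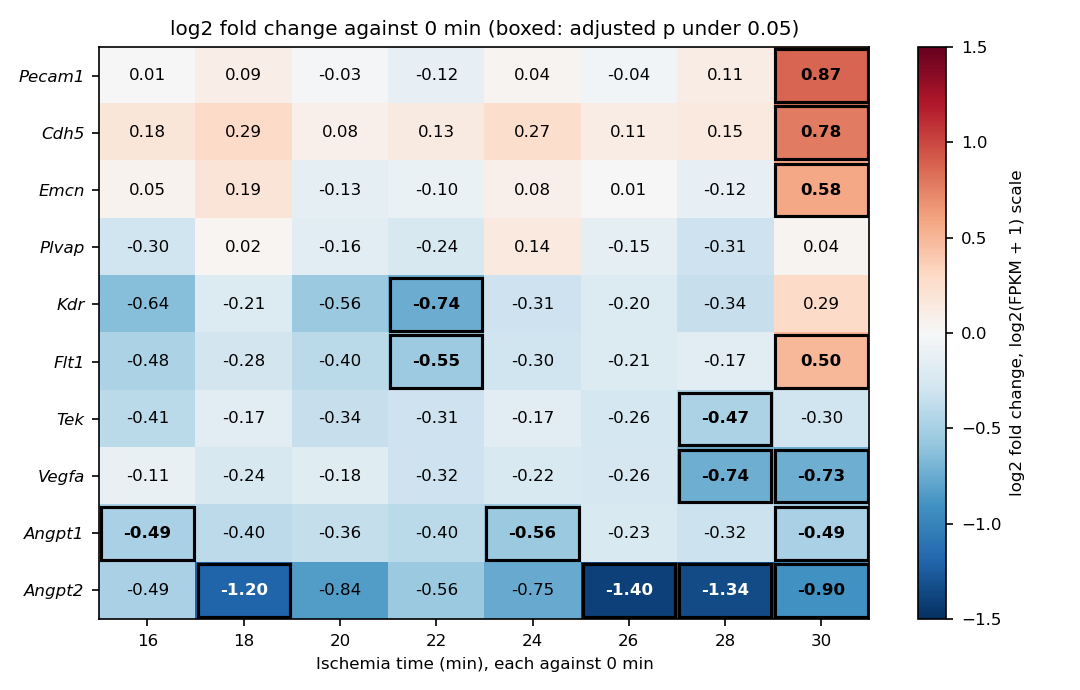
The log2 fold change of each gene at each ischemia time against 0 min, in color and in digits, on the log2(FPKM + 1) scale, with boxes around those with an adjusted p under 0.05 in limma. The boxes at 30 min are on Pecam1, Cdh5, Emcn and Flt1 (0.87, 0.78, 0.58 and 0.50) and on Vegfa, Angpt1 and Angpt2 (-0.73, -0.49 and -0.90).

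Tek, Angpt1 and Angpt2 each had their highest group mean in Sham, and for all 3 genes every pair of neighbours in the order of group means overlapped. Such neighbours are close in mean by construction, so their overlap does not tell whether groups further apart overlap. Tek (chr4:94739289-94874976, plus strand), the receptor TIE2, was at 6.28, 5.9 and 6.4 FPKM in Sham, 3.9, 5.26 and 4.78 FPKM at 28 min, and 4.59, 5.01 and 6.71 FPKM at 30 min. All 3 kidneys at 28 min were below Sham, while at 30 min replicate 3 was above it. For Tek it was -0.47 ± 0.18 on the log2 scale at 28 min (adjusted p = 0.037) and -0.30 at 30 min (95% interval -0.67 to 0.08). The call at 28 min held in 1 of 6 fits with a kidney left out. It was lost without quantile normalization (adjusted p = 0.11), without any Sham kidney, without replicate 3 of 28 min (adjusted p = 0.058) and without replicate 1 of 28 min, at -0.38 (adjusted p = 0.14). At 20 min Tek did not pass in the fit of all groups (adjusted p = 0.19). A fit of the 0 and 20 min groups alone gave -0.351 (adjusted p = 0.019).

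Angpt1 (chr15:42424723-42676977, minus strand), the ligand that activates TIE2, was at 3.1, 3.19 and 3.41 FPKM in Sham, 2.36, 2.23 and 2.04 FPKM at 24 min, 2.89, 2.97 and 2.2 FPKM at 28 min, and 2.54, 1.8 and 2.4 FPKM at 30 min. The kidneys at 20, 22, 24, 28 and 30 min all lay below the Sham kidneys. Its log2 fold change was -0.56 ± 0.16 at 24 min (adjusted p = 0.013) and -0.49 ± 0.16 at 30 min (adjusted p = 0.014), and it was -0.32 at 28 min (adjusted p = 0.11). The call at 24 min held when any 1 kidney was left out, but not without quantile normalization (adjusted p = 0.064). The call at 30 min was lost without replicate 2 of 30 min, at -0.42 (adjusted p = 0.059). At 22 min Angpt1 was -0.40 and did not pass in the fit of all groups (adjusted p = 0.063), while in a fit of the 0 and 22 min groups alone it did (adjusted p = 0.0049). At 16 min, where Angpt1 was at 1.53, 2.09 and 3.68 FPKM, the call of -0.49 ± 0.16 (adjusted p = 0.037) held in 1 of 6 such fits and was -0.29 (adjusted p = 0.23) without replicate 1 of 16 min, while without replicate 2 of 16 min adjusted p was 0.16. It was also lost without any of the 3 Sham kidneys and in a fit of the 0 and 16 min groups alone (adjusted p = 0.27). Fits of only the groups compared gave calls of Angpt1 at 18 min (-0.389, adjusted p = 0.048), 20 min (-0.351, adjusted p = 0.029) and 28 min (-0.328, adjusted p = 0.016).

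Angpt2 (chr8:18690263-18741562, minus strand), the context-dependent antagonist of TIE2, was the only DEG among the members. It was at 8.02, 4.96 and 5.38 FPKM in Sham, 2.45, 0.63 and 3.26 FPKM at 26 min, 1.66, 2.0 and 2.15 FPKM at 28 min, and 2.59, 2.84 and 3.76 FPKM at 30 min. The kidneys at 18, 26, 28 and 30 min were all below the Sham kidneys. On the log2 scale Angpt2 was -1.40 ± 0.37 at 26 min (adjusted p = 0.0068), -1.34 ± 0.37 at 28 min (adjusted p = 0.0048) and -0.90 ± 0.37 at 30 min (adjusted p = 0.045). The call at 28 min held when any 1 kidney was left out, at -1.45 to -1.16. The call at 30 min held in 0 of 6 such fits, with an adjusted p between 0.056 and 0.16, and it was also lost with a pseudocount of 0.1 FPKM (adjusted p = 0.095) and without quantile normalization (adjusted p = 0.078).

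Angpt2 lies within Mcph1 on the opposite strand, and Plvap overlaps Gtpbp3 on the opposite strand. Cdh5 and Angpt1 each overlap an antisense gene (Gm29682 and Gm17473). Strandedness is not given in the sources used here, and without it reads of overlapping genes cannot be told apart.

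Across the 27 kidneys the 2 lowest levels of Angpt2 were 0.69 FPKM in replicate 2 of 18 min and 0.63 FPKM in replicate 2 of 26 min, the kidneys nearly without Slc14a2. The other 25 kidneys ran from 1.66 to 8.02 FPKM. Cck was at 0.56 and 0 FPKM in this pair of kidneys and at 0.51 to 21.7 FPKM in the others, and Slc14a1, a second urea transporter, was at 0.41 and 0.07 FPKM against 0.67 to 4.04 FPKM. At 18 min the Angpt2 call, -1.20 ± 0.37 (adjusted p = 0.020), was lost without replicate 2 of 18 min, at -0.71 (adjusted p = 0.14), and without Sham replicate 1 (adjusted p = 0.082). At 26 min it was -1.0 (adjusted p = 0.053) without replicate 2 of 26 min. With both of these kidneys left out, an alternative chosen after seeing the data, Angpt2 was -0.71 at 18 min (adjusted p = 0.073), -1.0 at 26 min (adjusted p = 0.013), and passed at 28 and 30 min against 16 to 26 min (-0.40, adjusted p = 0.028) and in the trend per 10 min (-0.40, adjusted p = 0.027). Angpt1 at 18 min then passed as well, at -0.52 (adjusted p = 0.040), beside -0.40 (adjusted p = 0.070) with all kidneys. Without replicate 2 of 18 min alone, Angpt1 at 18 min was -0.52 (adjusted p = 0.034) and the Angpt2 trend -0.47 (adjusted p = 0.030). Of 7 medullary genes chosen after seeing the data, 3 fell at 28 min and 1 at 30 min (medians -0.81 and -0.58). Among all genes tested, 23.6% fell at 28 min and 25.4% at 30 min. Cck and Sim2, which fell at 28 min, are also among the genes most like Angpt2 in these same kidneys. Their fall is therefore not independent of that of Angpt2. Slc14a2 was at 67.1, 50.4 and 56.7 FPKM in Sham and 21.6, 54.15 and 45.2 FPKM at 28 min. At 30 min it was at 64.6, 46.7 and 97.3 FPKM. The part of the amount of medulla in a sample in these Angpt2 levels was not tested.

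**Figure D3:**
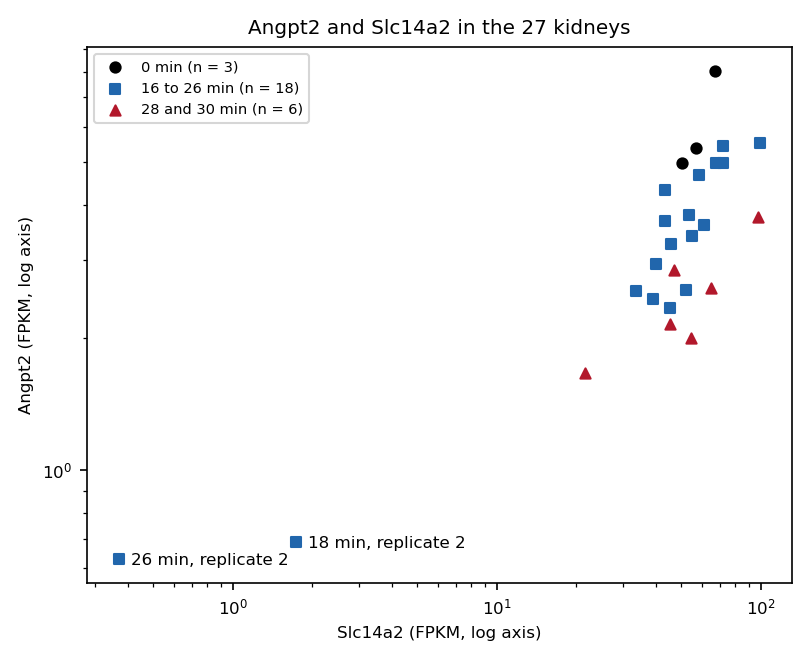
Angpt2 against Slc14a2, a urea transporter of the inner medulla, in FPKM on log axes, with a point for each of the 27 kidneys, by ischemia time (3 at 0 min, 18 from 16 to 26 min, 6 at 28 and 30 min). Replicate 2 of 18 min and replicate 2 of 26 min are lowest for both genes, and the 6 kidneys at 28 and 30 min hold 1.66 to 3.76 FPKM of Angpt2, below the 3 Sham kidneys (4.96 to 8.02 FPKM).

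The FPKM ratio of Angpt2 to Angpt1 was 2.59, 1.55 and 1.58 in Sham, 0.574, 0.673 and 0.977 at 28 min, and 1.02, 1.58 and 1.57 at 30 min. Angpt2 was thus above Angpt1 in all 3 Sham kidneys and below it in all 3 at 28 min. The log2 ratio with 1 FPKM added to both genes differed from Sham by -1.19 at 26 min, by -1.05 at 28 min and by -0.41 at 30 min, each with an exact two-sided permutation p of 0.1 (adjusted 0.286 over 20 tests). On that scale the kidneys of these 3 times did not overlap Sham, while at 30 min the plain FPKM ratios did.

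Between neighbouring ischemia times from 16 to 26 min, 0 members passed in each of the 5 comparisons, where 0% of all genes passed in limma and between 447 and 1100 of the 18188 genes had an unadjusted p under 0.05. Among the members this was so only for Emcn, 0.32 lower at 20 min than at 18 min on the log2 scale (unadjusted p = 0.035). From 28 to 30 min, 4 members passed, Pecam1, Cdh5, Emcn and Flt1, where 13.2% of all genes passed, and each was higher at 30 min, as were 6.47% of all genes. In a fit of those 2 groups alone the count was 0.

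In a comparison of the 6 kidneys at 28 and 30 min with the 18 at 16 to 26 min, 6 members passed, where 52.1% of all genes did. Pecam1 (0.50 ± 0.08), Flt1 (0.54 ± 0.11), Kdr (0.42 ± 0.15), Cdh5 (0.28 ± 0.07) and Emcn (0.21 ± 0.08) were higher, and Vegfa (-0.51 ± 0.07) was lower. By kidney, the 28 min samples of Cdh5, Kdr and Flt1 lay within the range from 16 to 26 min, while those of Vegfa lay below it. For Emcn, replicate 1 of 28 min lay below that range, and for Pecam1 replicate 2 of 28 min lay above it. The 28 min means of Emcn and Cdh5 (35.3 and 8.0 FPKM) were below those from 16 to 26 min (38.3 and 8.11 FPKM). The 28 min means of Pecam1, Kdr and Flt1 were above them (16.5, 5.74 and 7.21 against 14.6, 5.44 and 6.15 FPKM). The call of Emcn held in 14 of 24 fits with a kidney left out and was weakest without replicate 3 of 30 min, at 0.13 (adjusted p = 0.18). With the correction for transcript length Emcn was 0.19 higher and did not pass (adjusted p = 0.063). That of Kdr held in 22 of 24 and was lost without replicate 2 of 30 min (0.37, adjusted p = 0.065) and without replicate 3 of 30 min (0.35, adjusted p = 0.076).

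Most neighbours in the order of group means overlapped between kidneys, which is likely where groups are first sorted by mean. For Emcn and Kdr this held for all 8 pairs, while for Flt1 the 30 and 0 min groups, for Vegfa the 22 and 28 min groups, and for Cdh5 the 30 and 18 min groups and the 20 and 0 min groups stood apart.

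Along the 8 times from 16 to 30 min, 5 members passed the test for a linear trend, where 46.9% of all genes did. Per 10 min of ischemia the log2 level rose by 0.37 ± 0.07 for Pecam1, 0.22 ± 0.07 for Cdh5, 0.43 ± 0.14 for Kdr and 0.49 ± 0.10 for Flt1, and it fell by 0.42 ± 0.07 for Vegfa. A slope does not tell a steady change from a step. At 16, 28 and 30 min the group means were 14.7, 16.5 and 27.6 FPKM for Pecam1 and 8.17, 8.0 and 12.8 FPKM for Cdh5. They were 4.91, 5.74 and 9.55 FPKM for Kdr and 5.8, 7.21 and 12.2 FPKM for Flt1. For Vegfa they were 75.6, 48.5 and 47.1 FPKM. No trend was fitted without the 30 min group. The Kdr trend was 0.28 (adjusted p = 0.058) without replicate 1 of 16 min, the kidney with the lowest Kdr level, while the other 4 trends passed in all 24 fits with a kidney left out. The Emcn trend, 0.16 with all kidneys (adjusted p = 0.0985), passed without replicate 1 of 30 min, at 0.25 (adjusted p = 0.0033).

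Other endothelial genes rose at 30 min with Pecam1 and Cdh5. Of 34 further endothelial genes, 19 were higher and 0 lower at 30 min against 0 min, where 26.9% of all genes rose and 25.4% fell. Their median log2 fold change was 0.40 beside 0.00 for all genes tested. Thbd, the thrombin receptor thrombomodulin, rose from a mean of 4.19 to 22.6 FPKM (2.05 ± 0.14), and Procr, the receptor of protein C, rose from 0.943 to 7.4 FPKM (1.97 ± 0.16). The smallest rises that passed were those of the transcription factor Sox7 (0.40 ± 0.11) and the adhesion receptor Adgrl4 (0.27 ± 0.11). At 28 min the same list had 7 genes higher and 6 lower, with a median of 0.01, where 48.2% of all genes passed. Procr (1.37 ± 0.16) and Ramp2, a partner of the adrenomedullin receptor (1.31 ± 0.15), were higher there, and Adgrf5 (-0.82 ± 0.18) and the junction protein gene Esam (-0.80 ± 0.25) were lower. From 28 to 30 min, 13 genes of the list rose and 1 fell, where 13.2% of all genes passed. S1pr1, the sphingosine 1-phosphate receptor, was up by 1.08 ± 0.18 and Aplnr, the apelin receptor, was down by 0.75 on the log2 scale.

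**Figure D4:**
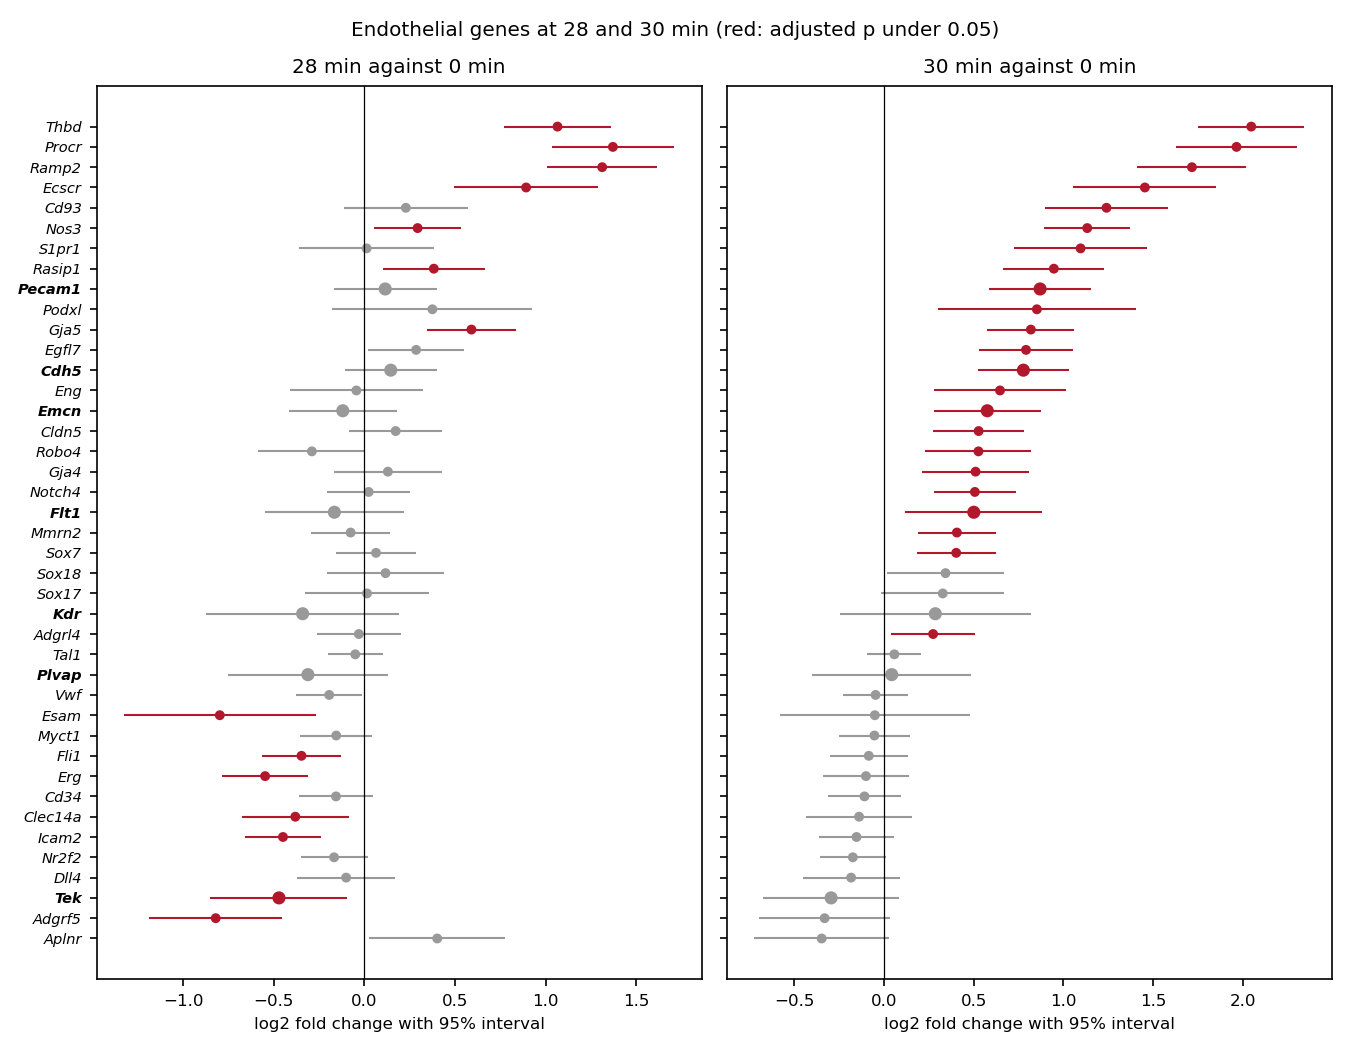
The log2 fold change with its 95% interval of 34 endothelial genes and of the members Pecam1, Cdh5, Emcn, Flt1, Kdr, Plvap and Tek (bold) at 28 min and 30 min against 0 min, ordered by the value at 30 min, with red for an adjusted p under 0.05. At 30 min 19 of the 34 genes are red and all of them lie above 0, while at 28 min 7 lie above and 6 below.

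Markers of other cell types and of platelets also moved at 30 min, where 26.9% of all genes tested rose and 25.4% fell. At 28 min 48.2% of all genes passed. Pecam1 is carried by platelets, and of 6 platelet genes Pf4 (0.46 FPKM in Sham and 9.19 FPKM at 30 min, 2.71 ± 0.29) and Ppbp (1.56 ± 0.25) rose at 30 min while Itga2b fell (-0.23 ± 0.09), with a median of 0.05. Their summed FPKM was 3.35 to 4.01 in Sham, 4.06 to 9.59 from 16 to 26 min, 5.65 to 7.57 at 28 min and 13.5 to 21.6 at 30 min, with no gene at 0 throughout a group. Of 12 leukocyte genes, 6 rose and 3 fell at 30 min, and their summed FPKM was 16.5 to 21.5 in Sham, 17.4 to 60.7 from 16 to 26 min, 49.1 to 58.1 at 28 min and 66.3 to 81.0 at 30 min, with a median fold of 0.48 at 30 min. The macrophage gene Cd68 rose by 2.63 ± 0.26 and the leukocyte antigen gene Ly6c2 fell (-1.23 ± 0.25). Of 13 mural and fibroblast genes, 8 rose and 1 fell (median 0.80), with Tagln and Acta2 of smooth muscle up by 3.56 ± 0.36 and 2.999 ± 0.37 and Dcn down (-1.63 ± 0.29), and a summed FPKM of 73.3 to 83.8 in Sham, 161.8 to 307.0 from 16 to 26 min, 177.3 to 233.3 at 28 min and 193.8 to 588.7 at 30 min. At each time from 16 to 26 min, 5 to 7 of these 13 genes were already higher than in Sham. At those times 19 to 30.1% of all genes passed in either direction. Of 6 lymphatic endothelial genes, Lyve1, Pdpn and Flt4 rose and Prox1 fell (median 0.19). Of 5 injured tubule genes 5 rose at 28 min and 4 at 30 min (medians 5.16 and 6.30), and all 10 interferon genes fell at both times against Sham (medians -2.43 and -2.95). The Sham kidneys differed widely for these 10 genes, with a summed FPKM of 87.9 in replicate 1 and of 2164 and 1697 in replicates 2 and 3. The part of these marker shifts in the Pecam1 level was not tested.

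Among 7 further genes of the VEGF family, 4 rose and 1 fell at 30 min against 0 min, with a median of 0.32. Of all genes tested, 52.3% passed there and 48.2% at 28 min. Pgf, the placental growth factor that binds FLT1, rose from 0.133 to 2.06 FPKM (1.33 ± 0.25, adjusted p = 0.00013), and the coreceptor gene Nrp2 rose from 2.18 to 4.14 FPKM (0.53 ± 0.12). Flt4, the receptor for VEGF-C, rose by 0.32 ± 0.08, and Vegfb, which also binds FLT1, fell from 79.2 to 58.4 FPKM (-0.45 ± 0.14). At 28 min Vegfb (-0.48 ± 0.14) and Vegfd (-0.85 ± 0.31) were lower and Nrp1 (0.28 ± 0.08) was higher. Thus Vegfa and Vegfb were lower and Pgf was higher in the 30 min kidneys.

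Of 7 further angiopoietin and TIE genes, 2 rose and 1 fell at 30 min (median 0.03), where 52.3% of all genes passed. Angptl4, an angiopoietin-like inhibitor of lipoprotein lipase, rose from 25.6 to 75.7 FPKM (1.57 ± 0.32), and Angpt4, a further TIE2 ligand, went from 0.09 to 0.57 FPKM (0.49 ± 0.10). At 28 min Ptprb, the phosphatase VE-PTP that acts on TIE2, was lower (-0.47 ± 0.14), as was Angptl1, listed at 0 FPKM in all 3 kidneys. Tie1, the partner receptor of TIE2, was among the 4 genes of this list that did not pass at 30 min.

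Of 11 genes of endothelial activation and tip cells, 6 rose and 1 fell at 30 min (median 0.20), and Vcam1 alone rose at 28 min. Of all genes tested, 52.3% passed at 30 min and 48.2% at 28 min. Apln, the apelin ligand, rose from 2.09 to 7.27 FPKM (1.15 ± 0.31), and the selectin gene Sele rose by 0.18 ± 0.05 from a level of 0.06 to 0.217 FPKM, while Nid2 fell (-0.41 ± 0.15). Of 6 glomerular endothelial genes, 3 rose and 2 fell at 30 min (median 0.39), with the tissue plasminogen activator gene Plat at 16.5 FPKM in Sham and 48.8 FPKM at 30 min and Igfbp5 at 142.0 and 28.8 FPKM. At 28 min 2 of them rose and 1 fell.

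Vegfa is a known target of the hypoxia-inducible factors, and 17 other hypoxia genes moved in both directions. The 17 include genes of the factors themselves and of their regulation beside genes they induce, so the counts are not of targets alone. At 28 min 4 of the 17 were higher and 9 lower than in Sham (median -0.34), and at 30 min 4 were higher and 6 lower (median -0.19). Of all genes tested, 48.2% passed at 28 min and 52.3% at 30 min. Adm, adrenomedullin, rose from 5.07 to 19.5 FPKM at 30 min (1.63 ± 0.20) and Hk2, a hexokinase, rose by 1.20 ± 0.23. The carbonic anhydrase gene Car9 fell from 9.14 to 2.03 FPKM (-1.81 ± 0.23) and Ndrg1 fell from 1280 to 506 FPKM (-1.43 ± 0.18). From 16 to 26 min, 4 to 7 of the 17 genes were lower than in Sham and 0 to 1 higher, where 19 to 30.1% of all genes passed.

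The genes whose pattern was most like a member over the 27 kidneys were taken from 12345 genes with a mean of at least 1 FPKM, by Pearson's r of log2(FPKM + 1). These values pool the differences between ischemia times with those between mice, and the genes compared share libraries. Pecam1 was most like Lrrc8c (0.951), S1pr1 (0.92) and Entpd1 (0.916), and Cdh5 was most like Pecam1 (0.902), Notch4 (0.898) and Shank3 (0.89). Kdr was most like Flt1 (0.899), Cyyr1 (0.841) and Clca3a1 (0.841), and Flt1 was most like Cyyr1 (0.956), Ehd3 (0.912) and Arhgap31 (0.908). Emcn was most like Eng (0.89), Flt4 (0.878) and Notch4 (0.872), and Plvap was most like Tie1 (0.901), Slc9a3r2 (0.802) and Dram1 (0.79). S1pr1, Notch4 and Eng are in the list of 34 endothelial genes, and Flt4 and Tie1 in those of the receptors.

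Tek was most like Egflam (0.888), Tmem204 (0.858) and Cpm (0.856), and Angpt1, which had the weakest likeness of the 10, was most like Lgr4 (0.762), Ap5m1 (0.729) and Evi5 (0.725). Vegfa was most like Kidins220 (0.952), Lypla1 (0.949) and Mapt (0.948). Angpt2 was most like Cck (0.905), Sim2 (0.905) and Scel (0.894), and without the 2 kidneys lowest in Slc14a2 these values were 0.888, 0.858 and 0.81. Within ischemia times, Flt1 and Tek (0.86), Kdr and Flt1 (0.858) and Pecam1 and Cdh5 (0.81) varied most closely together among the pairs of members, and Angpt1 and Angpt2 were at -0.40.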

How the data were processed

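Kidney RNA of 27 mice was sequenced (DNBSEQ-G400), with 3 separate mice in each of 9 groups set by the labels' ischemia time. The authors deposited FPKM values per gene on a linear scale (their text calls them RPKM). Their processing notes name Bowtie2, RSEM and DESeq2 without versions or roles and the build GRCm38.p6; strandedness and read counts are not given in the sources used here, so the depth is unknown and precision rests on the spread between mice.

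FPKM were analysed as log2(FPKM + 1) after quantile normalization with limma 3.58.1 in R 4.3.3, over 18188 genes above 0 FPKM in at least 3 kidneys, with a mean for each ischemia time, a common error from all 27 kidneys and Benjamini-Hochberg adjustment. The pseudocount makes folds of low genes too small. In all, 17 comparisons were fitted: each time against 0 min, neighbouring times, 28 and 30 min against 16 to 26 min, and the trend. The 20 tests of gene ratios used the exact permutation test (scipy 1.17.1). The steps were tested on simulated data. The table held 0 columns of other samples. Loci come from GENCODE on GRCm38.

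The members, the gene lists and the split at 28 min were chosen with earlier results of these data known. The text names all 10 members, from each list at most 4 genes (the 2 largest and 2 smallest folds that passed, beside lists short enough to be named in full) and for each member the 3 genes of highest correlation. One listed endothelial gene, Eltd1, did not match the table. The medullary genes, the length correction and the fit without the 2 kidneys lowest in Slc14a2 were chosen after seeing the data. Alternatives were a pseudocount of 0.1 FPKM, other normalizations, filters, a mean-variance trend in limma, fits of 2 groups, the replicate number as a block, and leaving out each kidney.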

Additional observations from a re-analysis of the deposited data

Results flagged for a closer look

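Between neighbouring ischemia times, 5 of the member results differed in limma's test of the difference itself, on the log2(FPKM + 1) scale. Vegfa changed by -0.480252 from 26 to 28 min. From 28 to 30 min Pecam1 changed by 0.755627, Cdh5 by 0.631817, Flt1 by 0.666394 and Emcn by 0.695249, where 13.2% of all genes passed. In a fit of the 28 and 30 min groups alone, no member passed. The changes are the same values as in the comparisons above, where the calls lost without single kidneys (Vegfa and Flt1) are named.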

How the results depend on the processing

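No member result changed sign past the threshold under the alternatives run, and of the recomputed values 2862 kept their side of the threshold, 79 no longer passed and 29 newly passed. Without quantile normalization, and also when FPKM were rescaled to a constant sum, the number of members that passed against 0 min was 0 (16 min), 2 (18 min), 0 (22 min) and 2 (28 min), and for 30 min it was 6 in the first and 5 in the second. With fits of only the groups compared it was 0 (16 min), 3 (18 min), 4 (20 min), 3 (22 min), 4 (24 min), 5 (28 min) and 5 (30 min), and 0 for 30 against 28 min. Without the pair of kidneys lowest in Slc14a2 it was 0 for 28 against 26 min. The cause was not tested. The share of all called genes that were higher than in Sham was 45.3 to 51.5% over the 8 times, 61.4 to 74.1% without quantile normalization and 61.5 to 77.8% with the constant sum. With single kidneys left out, the number of members that passed against 0 min was 0 to 4 (16 min), 0 to 1 (18 min), 0 (20 min), 0 to 2 (22 min), 1 (24 min), 0 to 1 (26 min), 2 to 3 (28 min) and 4 to 6 (30 min). It was 0 to 1 for 28 against 26 min, 3 to 6 for 30 against 28 min, 4 to 6 for the late against the earlier times and 4 to 6 for the trend. On the log2 scale the ratio of Flt1 to Kdr at 28 and 30 min against 16 to 26 min was then 0.09152 to 0.1451, and that of Angpt2 to Angpt1 was -0.3337 to -0.127. With 3 kidneys a group and unknown depth, folds near the spread between mice could not be told from 0.

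With the replicate number as a block, the counts against 0 min were 1, 1, 0, 2, 1, 1, 3 and 7 in order of ischemia time, 1 for 28 against 26 min, 4 for 30 against 28 min, 6 for the late against the earlier times and 5 for the trend, as without it. The numbers did not pair the mice, since same-numbered kidneys of different groups had a median correlation of -0.0087 over 108 pairs (range -0.42 to 0.48), beside -0.010 over 216 pairs with different numbers.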
